A study of Arabidopsis thaliana with 12 samples.

Results

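AT1G73600 and PMEAMT (AT1G48600), the 2 phosphoethanolamine methyltransferase genes with a named probe set in leaves of Arabidopsis thaliana, were followed on 12 Affymetrix ATH1 arrays. Each gene had 1 probe set, so the description rests on 2 of 22746 probe sets, controls left out. The genes were chosen by their signals on these same arrays, for differences between the genotypes, together with their shared family. Their levels and differences are therefore given as a description with no test, and p-values are given only for other genes.

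The plants were wild type Columbia (Col0), sex1-3 (an induced mutation in the Col-0 background), sex4-3 (insertion line Salk_102567) and ptpkis2 (insertion line Salk_053285), with 3 arrays per genotype. SEX1 is the glucan, water dikinase that phosphorylates starch, SEX4 is a phosphoglucan phosphatase, and PTPKIS2, also known as LSF1, is a protein related to SEX4. All 4 genotypes were grown under a 12 hour photoperiod (irradiance 100 micromol m-2 s-1, temperature 20 degrees Celsius), and leaves were harvested at the end of the night, 0.5 hours ahead of dawn, as 3 leaves from 8 plants. The developmental stage was given as 3.70 for every sample. Each mutant was represented by 1 allele, and it is not stated whether replicate arrays stem from different plants. Errors and p-values therefore describe spread among arrays, possibly only technical spread.

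Phosphocholine, the head-group precursor of the membrane lipid phosphatidylcholine, is made in plants mainly by stepwise methylation of phosphoethanolamine. Phosphoethanolamine N-methyltransferases carry out these steps with S-adenosylmethionine as the methyl donor. In Arabidopsis the family comprises XPL1 (AT3G18000, also called NMT1), PMEAMT and AT1G73600. PMEAMT is known for the later methylations, from phosphomethylethanolamine onward, and not for the first. Downstream, enzymes that form CDP-choline and aminoalcohol phosphotransferases carry phosphocholine into phosphatidylcholine. XPL1 had no named probe set and was not analysed here.

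Wild type replicate 2 stood apart from the other arrays and is left out in the second value wherever 2 are given. Across probe sets it correlated with the other 11 arrays at 0.586 to 0.604, whereas those 11 correlated with one another at 0.891 to 0.93. Its median signal was 62.2, while the others had 24.0 to 29.7. The leaf markers RCA (Rubisco activase) and LHCB4.1 (a light-harvesting protein) had mean signals of 8886 to 10288 and 6540 to 8105 over the genotypes, while the root marker PYK10 lay between 0.51 and 10.6 on single arrays. The other 11 leaf and 6 root markers, and all 8 flower and seed markers of the fixed lists, had no probe set named for 1 gene.

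AT1G73600 was almost lost in sex1-3 and highest in ptpkis2. Its MAS5 signal was 210, 89.6 and 236 on wild type replicates 1, 2 and 3. On the sex1-3 arrays it was 12.3, 6.82 and 4.95, on the sex4-3 arrays 156, 101 and 108, and on the ptpkis2 arrays 590, 609 and 699. All 3 sex1-3 signals lay below every array of the other genotypes and all 3 ptpkis2 signals above them. How many probe sets were separate from every other array was not counted, and shares for pairs of genotypes are given below. The sex4-3 signals overlapped wild type only through wild type replicate 2, which at 89.6 lay below all 3 of them. In order of level the genotypes were ptpkis2 (mean 633 ± 58.2, SD, n = 3), wild type (178 ± 78.1, or 223 ± 18.4 for replicates 1 and 3), sex4-3 (122 ± 29.7) and sex1-3 (8.02 ± 3.81). Wild type and sex4-3 were the neighbours in this order that did not differ beyond their spread with all arrays.

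PMEAMT also had its lowest signals in sex1-3, but it was not raised in ptpkis2. Its signal was 694, 244 and 663 on wild type replicates 1, 2 and 3, and 584, 554 and 606 on the ptpkis2 arrays. It was 445, 409 and 344 on the sex4-3 arrays and 96.3, 118 and 80.7 on the sex1-3 arrays. The 3 sex1-3 signals were again below those of every other array, a pattern not counted over all probe sets. The ptpkis2 and sex4-3 signals did not overlap each other, and both lay above wild type replicate 2 and below wild type replicates 1 and 3. The order of mean levels was ptpkis2 (581 ± 26.1, SD, n = 3), wild type (533 ± 251), sex4-3 (399 ± 51.5) and sex1-3 (98.3 ± 18.7). Wild type overlapped both of its neighbours in this order. Without wild type replicate 2 it came first, at 678 ± 21.7 over 2 arrays.

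**Figure D1:**
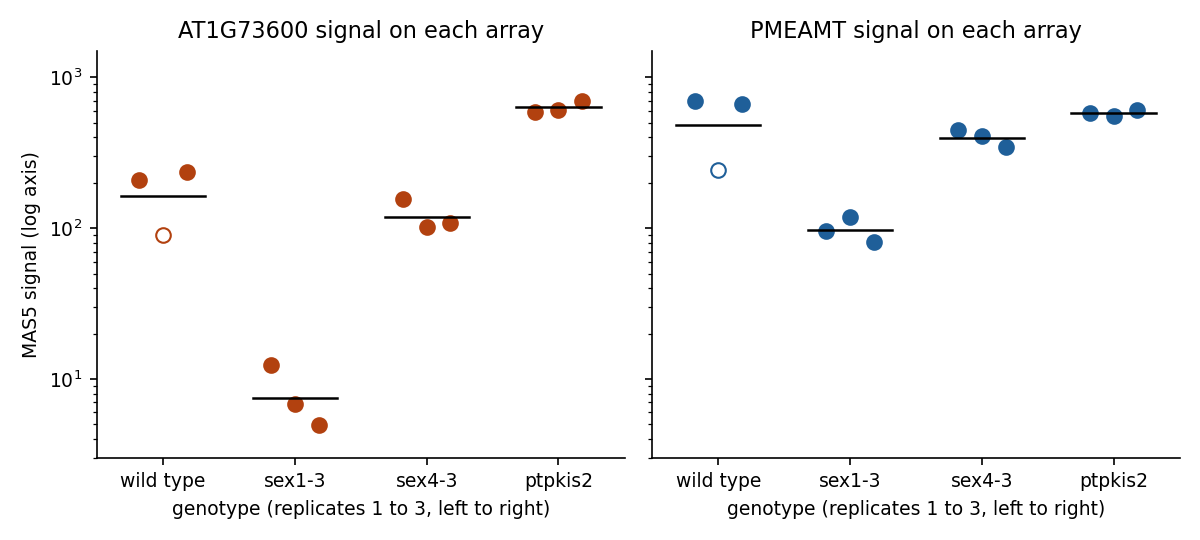
MAS5 signal (log axis) of AT1G73600 (left) and PMEAMT (right) on each of the 12 arrays, by genotype; points are arrays, the open point is wild type replicate 2 and lines are geometric means of 3 arrays. The sex1-3 arrays are lowest for both genes, at 4.95 to 12.3 and 80.7 to 118, and the ptpkis2 arrays, at 590 to 699, are highest for AT1G73600 only.

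Within each array, AT1G73600 moved further through the ranking of probe sets than PMEAMT. In ptpkis2 it stood at percentiles 94.7 to 95.6 of its array and in sex1-3 at percentiles 24.2 to 36.8. PMEAMT stood at percentiles 94.4 to 94.9 in ptpkis2 and 70.8 to 77.7 in sex1-3. The sex1-3 signals of AT1G73600 were below the median signal of those arrays (24.0 to 26.0) and above their 20th percentile (2.78 to 3.19). Detection calls were not used here, so a signal at this level may be largely background, and fold changes against it are uncertain in size. Those of PMEAMT, at 80.7 or more, were above the median of their arrays. The 3 sex1-3 signals of AT1G73600 had a coefficient of variation of 47.5%, against 9.2% in ptpkis2.

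In sex1-3, impaired in the starch-phosphorylating dikinase, both genes lay far below wild type. AT1G73600 was 22.0-fold lower in sex1-3 (log2 -4.46 ± 0.40, SE, n = 3 per genotype), or 29.8-fold without wild type replicate 2 (-4.90 ± 0.30). PMEAMT was 4.96-fold lower (-2.31 ± 0.34), or 6.98-fold (-2.80 ± 0.17). Among the 13647 probe sets with enough signal to be fitted, AT1G73600 held place 4 from the lowest difference and PMEAMT place 98. The sex1-3 and wild type signals did not overlap for either gene, a separation in this direction that 11.9% of all fitted probe sets showed, or 22.1% without wild type replicate 2. With a pseudocount of 4.19, the 20th percentile of all signals, AT1G73600 was at -3.83 and PMEAMT at -2.26.

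In sex4-3, impaired in the phosphatase SEX4, both genes lay modestly below wild type, by an amount that turned on wild type replicate 2. AT1G73600 had a log2 difference of -0.46 ± 0.40 (SE, n = 3 per genotype), and -0.90 ± 0.30 without that array. PMEAMT had -0.28 ± 0.34, and -0.77 ± 0.17 without it. With all arrays the sex4-3 and wild type signals of both genes overlapped. Without wild type replicate 2 neither gene's did, as was so for 9.94% of fitted probe sets in that direction, and in order of difference AT1G73600 held place 145 and PMEAMT place 222 from the lowest. Median centring of each array, which raised the median difference of all fitted probe sets from 0.02 to 0.43, put AT1G73600 at -0.06 and PMEAMT at 0.12. Centring subtracts the median of each array. That of wild type replicate 2 was 62.2, against 24.0 to 29.7 elsewhere, so the centred values turn on that array too.

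In ptpkis2 the paralogues parted. AT1G73600 was 3.84-fold higher than in wild type (log2 1.94 ± 0.40, SE, n = 3 per genotype), or 2.84-fold higher without wild type replicate 2 (1.5 ± 0.30). It held place 38 from the highest difference with all arrays and place 35 without that array. PMEAMT was at 0.27 ± 0.34 with all arrays and at -0.22 ± 0.17 without wild type replicate 2, so its sign depended on that array. The ptpkis2 signals of AT1G73600 were all above wild type, as in 10.4% of fitted probe sets (18.6% without wild type replicate 2). Those of PMEAMT overlapped wild type, and without that array lay just below it, as in 16.7% of fitted probe sets.

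Between mutants, where no wild type array enters the difference, AT1G73600 was 84.6-fold higher in ptpkis2 than in sex1-3 (log2 6.40 ± 0.40, SE, n = 3 per genotype), in place 1 from the highest difference. Its sex1-3 signals may be largely background, so the size is uncertain: with the pseudocount of 4.19 it was 53.7-fold (log2 5.75), and in sex4-3 minus sex1-3 10.4-fold (log2 3.38). PMEAMT was 5.98-fold higher (2.58 ± 0.34), in place 92. Between sex4-3 and sex1-3, AT1G73600 was 16-fold higher in sex4-3 (4.00 ± 0.40, place 4) and PMEAMT 4.09-fold (2.03 ± 0.34, place 105). Between ptpkis2 and sex4-3, AT1G73600 was 5.29-fold higher in ptpkis2 (2.40 ± 0.40, place 2) and PMEAMT 1.46-fold (0.55 ± 0.34, place 907). Signals of both genes were separate in each of these comparisons, as they were, in the same direction, for 26.1%, 17.8% and 11.2% of fitted probe sets. The SE of each difference is pooled over all genotypes, so it does draw on the wild type arrays. Without wild type replicate 2 the differences without a pseudocount were the same. Their SE was then 0.27 for AT1G73600 and 0.15 for PMEAMT, which put PMEAMT in ptpkis2 minus sex4-3 at 0.55 ± 0.15. The comparisons share arrays with one another and are not independent. RNA came from whole leaves, in which fewer cells expressing a gene and less of its RNA per cell cannot be told apart.

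**Figure D2:**
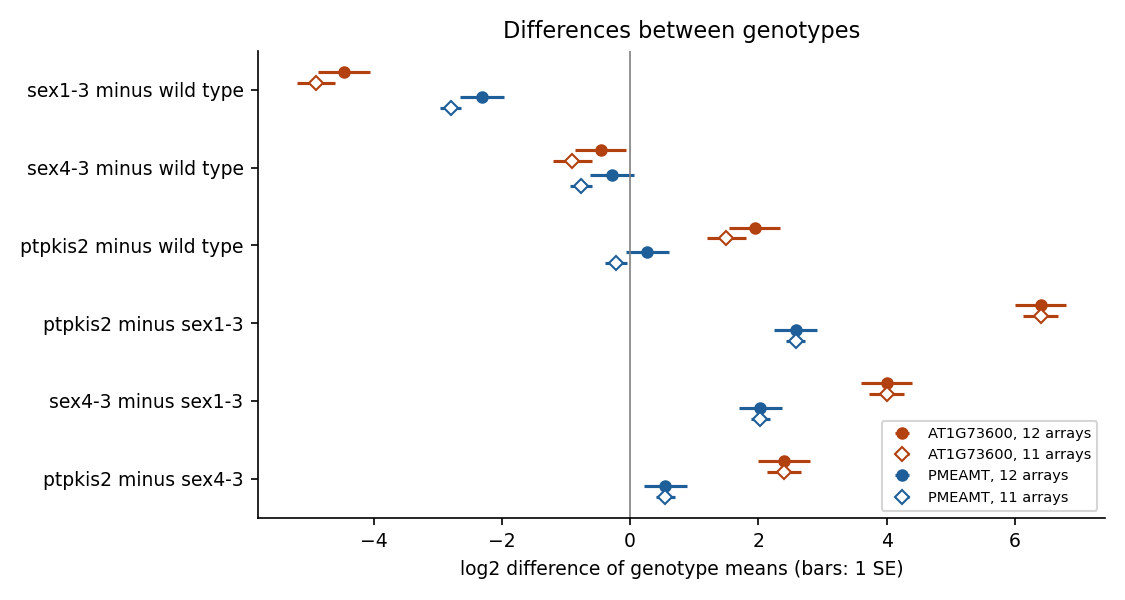
Log2 differences of genotype means of AT1G73600 and PMEAMT in the 6 comparisons, with bars of 1 SE, from all 12 arrays (filled) and from 11 arrays without wild type replicate 2 (open). AT1G73600 spans -4.46 to 6.40 with 12 arrays, PMEAMT spans -2.31 to 2.58, and PMEAMT in ptpkis2 minus wild type changes sign between the 2 sets of arrays.

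Set against all fitted probe sets, AT1G73600 lay outside the central range in sex1-3 and ptpkis2 and inside it in sex4-3. The 1st and 99th percentiles of the log2 difference from wild type were -2.11 and 1.79 in sex1-3, -1.40 and 1.49 in sex4-3, and -1.46 and 1.63 in ptpkis2. PMEAMT was beyond these bounds in sex1-3 alone of the 3 mutants. Without wild type replicate 2 the bounds in sex4-3 narrowed to -0.91 and 0.83. There AT1G73600, at -0.90, was only just inside them, and PMEAMT was at -0.77.

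**Figure D3:**
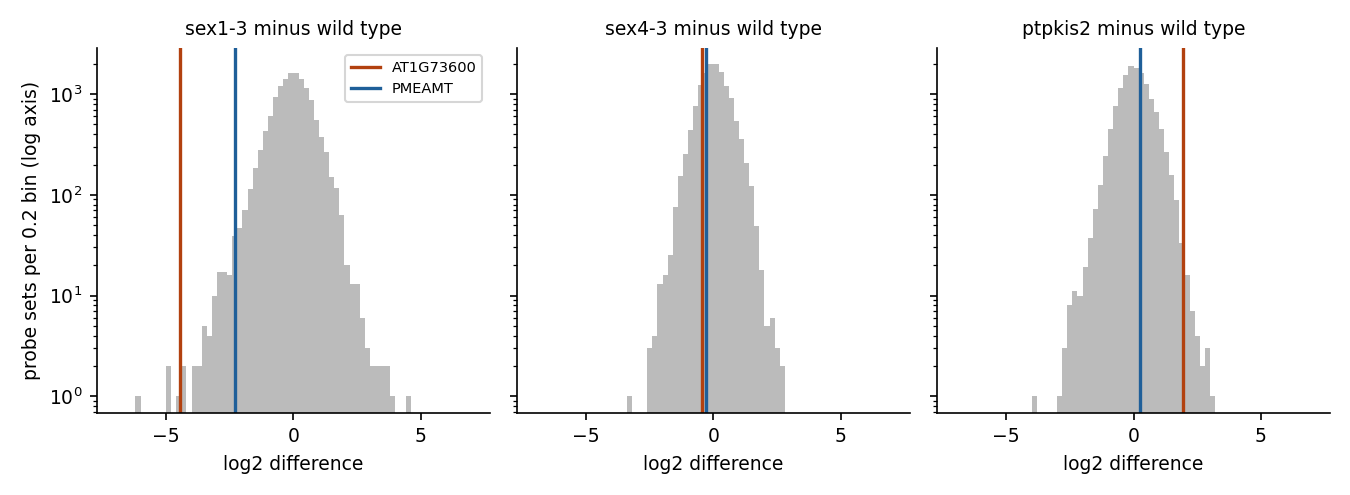
Number of fitted probe sets (log axis, grey bars, bins of 0.2) by log2 difference from wild type in each mutant, 12 arrays, with AT1G73600 and PMEAMT marked by vertical lines. AT1G73600 is far to the left in sex1-3 at -4.46 and to the right in ptpkis2 at 1.94, while PMEAMT is to the left in sex1-3 at -2.31 and near the middle in the other mutants. Without wild type replicate 2, not drawn, PMEAMT is at -0.77 in sex4-3, place 222 from the lowest.

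The unequal change of the paralogues was seen within each array, where a difference in overall array brightness cancels. The log2 ratio of AT1G73600 to PMEAMT, set to an average of 0 for wild type replicates 1 and 3, was 0.16 on wild type replicate 2, so this array was low for both genes to a similar extent. The ratio was 1.62, 1.74 and 1.81 on the ptpkis2 arrays and -1.36, -2.51 and -2.42 on the sex1-3 arrays. It was 0.09, -0.41 and -0.06 on the sex4-3 arrays, which overlapped wild type. The change of AT1G73600 from wild type was larger than that of PMEAMT by 1.67 ± 0.29 in ptpkis2 (SE) and more negative in sex1-3, by -2.15 ± 0.29, and in sex4-3 the values differed by -0.18 ± 0.29. Without wild type replicate 2 these were 1.73 ± 0.34, -2.10 ± 0.34 and -0.13 ± 0.34. The ratio is of signals from different probes, so it shows unequal change and not which transcript was more abundant.

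**Figure D4:**
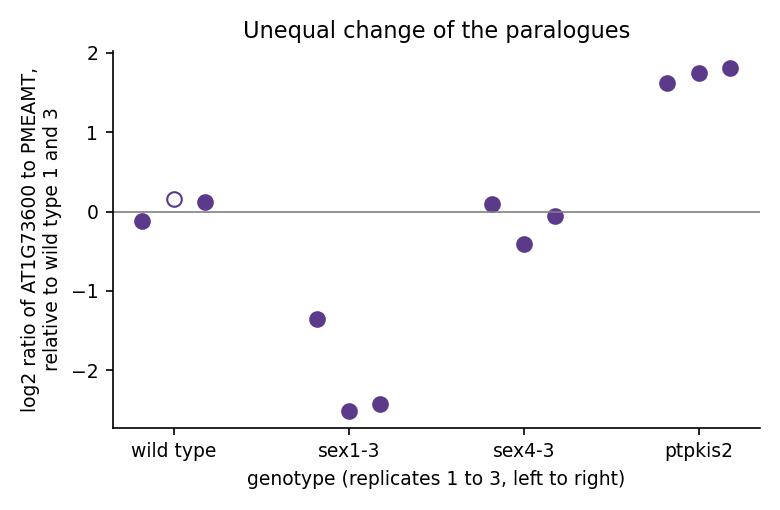
Log2 ratio of the AT1G73600 signal to the PMEAMT signal on each array, relative to the mean of wild type replicates 1 and 3; the open point is wild type replicate 2. The ptpkis2 arrays lie at 1.62 to 1.81, the sex1-3 arrays at -2.51 to -1.36, and wild type and sex4-3 between -0.41 and 0.16.

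Of the other genes of choline and phosphatidylcholine metabolism, 5 of the 28 listed had a named probe set, and none was called in any of the 6 comparisons by limma at an adjusted p below 0.05. Over all fitted probe sets limma called 2.95% between sex1-3 and wild type, 0.00733% between sex4-3 and wild type and 0.264% between ptpkis2 and wild type. It called 9.46% between ptpkis2 and sex1-3, 2.43% between sex4-3 and sex1-3 and 0.0659% between ptpkis2 and sex4-3. At an unadjusted p below 0.05, 2 of the 5 genes passed between sex1-3 and wild type, 1 between ptpkis2 and sex1-3, 1 between sex4-3 and sex1-3, and 0 in the other comparisons. Of all fitted probe sets 19.9%, 22.0% and 13.4% passed at that level in these 3 comparisons, and 5.23%, 12.5% and 4.48% in sex4-3 minus wild type, ptpkis2 minus wild type and ptpkis2 minus sex4-3. The median log2 difference of the 5 from wild type was -0.10 in sex1-3, -0.06 in sex4-3 and -0.06 in ptpkis2, where all fitted probe sets had -0.02, 0.02 and 0.05.

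CCT1 and CCT2, the enzymes that activate phosphocholine to CDP-choline, were not called. CCT2 had signals of 39.2, 32.8 and 13.5 in sex1-3 and 45.3, 91.7 and 42.6 in wild type, a log2 difference of -1.12 ± 0.43 (limma adjusted p = 0.19) or -0.76 ± 0.38 without wild type replicate 2 (adjusted p = 0.25). Its sex1-3 signals lay below all 3 wild type signals, as was so for 11.9% of all fitted probe sets, or 22.1% without wild type replicate 2. CCT1 had a mean signal of 69.1 to 72.6 in all 4 genotypes, with differences from wild type of -0.08, -0.06 and -0.06 in sex1-3, sex4-3 and ptpkis2.

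AAPT2, an aminoalcohol phosphotransferase of the last step, had signals of 274, 240 and 272 in sex1-3 and 313, 323 and 459 in wild type. Its log2 difference was -0.46 ± 0.19 (limma adjusted p = 0.21), or -0.54 ± 0.18 without wild type replicate 2 (adjusted p = 0.082), and its signals in the other mutants, 304 to 403, overlapped wild type. AT4G09760, listed as a putative choline kinase, had 207, 200 and 234 in sex1-3 and 104, 125 and 187 in ptpkis2. Between these mutants it was at -0.66 ± 0.49 (adjusted p = 0.51). Without wild type replicate 2, on which its signal was 44.1, the same difference had an SE of 0.23 and passed (adjusted p = 0.045), in a fit that called 29.1% of all probe sets in that comparison. AT1G74320, listed likewise, was at -0.10 ± 0.29 in sex1-3 minus wild type (limma adjusted p = 0.84); wild type replicate 2 had the highest signal, 163, and the other arrays had 63.8 to 102.

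**Figure D5:**
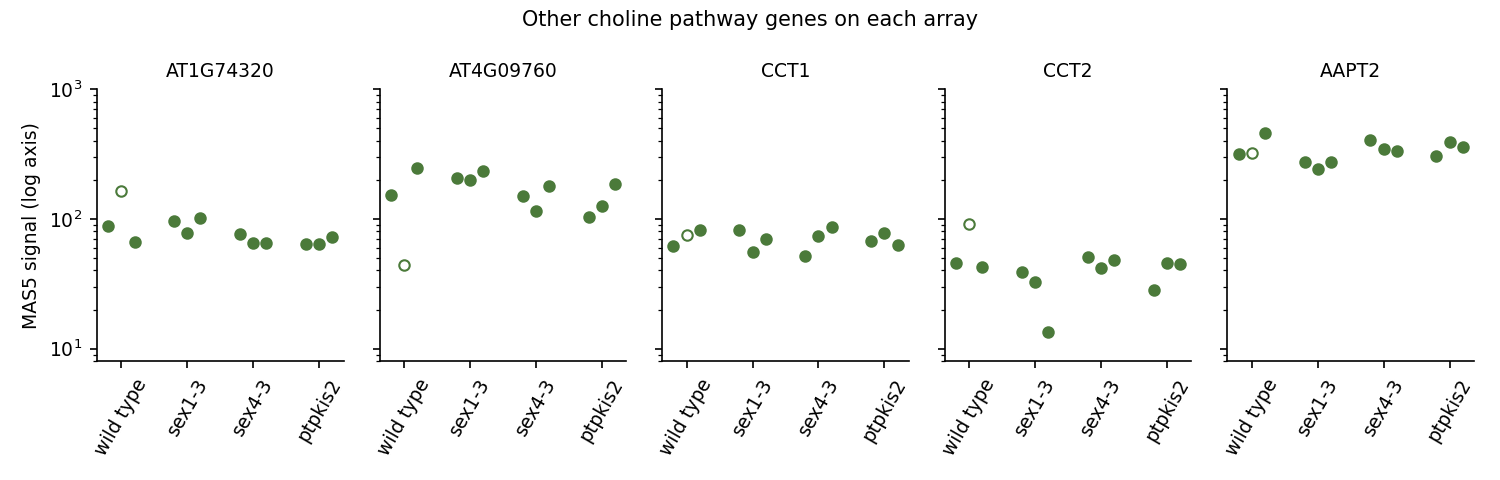
MAS5 signal (log axis) of the 5 other choline pathway genes on each array, by genotype with replicates 1 to 3 from left to right; the open point is wild type replicate 2. CCT1 means stay at 69.1 to 72.6 over the genotypes, and the sex1-3 arrays of CCT2 (13.5 to 39.2) and AAPT2 (240 to 274) lie below their wild type arrays. A separation in this direction was shown by 11.9% of all fitted probe sets.

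A further 10 genes whose RefSeq symbol or synonyms contain adenosyl, methyltransferase, choline, ethanolamine or betaine were examined as a list added later. Methyltransferase genes without such a word in symbol or synonyms are not on it, so it does not stand for methyltransferases as a class. Of them 1 was called between sex1-3 and wild type with 12 arrays by limma, where 2.95% of all fitted probe sets were called, and none in the other comparisons. At an unadjusted p below 0.05, 4 of the 10 passed between sex1-3 and wild type, 4 between ptpkis2 and sex1-3, 2 between sex4-3 and sex1-3 and 0 in the other comparisons, beside 19.9%, 22.0% and 13.4% of all fitted probe sets in the first 3. The call was CCOAMT, named as a caffeoyl-CoA 3-O-methyltransferase, an enzyme class of phenylpropanoid metabolism, which rose. Its signal was 138, 82.7 and 157 in sex1-3 and 25.8, 2.51 and 27.8 in wild type, a log2 difference of 3.32 ± 0.76 (limma adjusted p = 0.042) or 2.18 ± 0.34 without wild type replicate 2 (adjusted p = 0.0013). The call was lost with quantile normalization (adjusted p = 0.19), median centring (0.11), no trend (0.055) or sex1-3 and wild type fitted alone (0.37), and without any 1 array of the mutants (0.062 to 0.17).

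Among the other names on this list, ALDH10A9, a betaine aldehyde dehydrogenase, the enzyme type that acts after choline oxidation, was at 0.04 ± 0.17 in sex1-3 minus wild type (limma adjusted p = 0.90). SAMDC, S-adenosylmethionine decarboxylase of polyamine synthesis, was at 0.76 ± 0.32 in sex1-3 (limma adjusted p = 0.21). MMT, methionine S-methyltransferase, was at -0.19 ± 0.24 (adjusted p = 0.64). JMT, which methylates jasmonic acid, was at -1.48 ± 0.49 (adjusted p = 0.13), with 22.9, 14.0 and 15.4 in sex1-3 and 31.3, 107 and 32.3 in wild type. LSMT-L, a lysine methyltransferase-like gene, was at -1.04 ± 0.27 (adjusted p = 0.07), and without wild type replicate 2 it fell by 0.74 ± 0.21 and passed (adjusted p = 0.04), when 8.87% of fitted probe sets were called. Without that array 3 of the 10 genes were called in ptpkis2 minus sex1-3, where 29.1% of all fitted probe sets were: MMT at 0.52 ± 0.18 (adjusted p = 0.039), JMT at 1.30 ± 0.32 (0.0072) and CCOAMT at -2.31 ± 0.31 (7.5e-05). In sex4-3 minus sex1-3, where 14.0% of fitted probe sets were called, 2 were: LSMT-L at 0.59 ± 0.19 (adjusted p = 0.049) and CCOAMT at -2.10 ± 0.31 (0.0005). The lists for the S-adenosylmethionine cycle (13 genes) and for phosphate limitation and lipid exchange (14 genes) had no probe set named for 1 gene and gave no value.

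The genes next to AT1G73600 and PMEAMT on the chromosome were not called between sex1-3 and wild type, where 2.95% of all fitted probe sets were. The share was 0.00733% in sex4-3 minus wild type, 0.264% in ptpkis2 minus wild type, 2.43% in sex4-3 minus sex1-3 and 0.0659% in ptpkis2 minus sex4-3. At such shares a lack of calls among the 7 fitted genes says little about them. Of the 8 nearest genes with a named probe set around AT1G73600, 3 had enough signal to be fitted, and their log2 differences between sex1-3 and wild type were -0.95, -0.02 and 0.33, with 12 arrays giving no call in any comparison by limma and none at an unadjusted p below 0.05. The value of -0.95 was for AT1G73630 and became 0.00 without wild type replicate 2. Of the 8 around PMEAMT, 4 were fitted, at -0.67 to 1.21, with no call against wild type. At an unadjusted p below 0.05, 1 of these 4 passed in ptpkis2 minus wild type, 2 in ptpkis2 minus sex1-3, 1 in sex4-3 minus sex1-3 and 0 in the other comparisons. At that level 12.5%, 22.0% and 13.4% of all fitted probe sets passed in these 3 comparisons. In sex1-3 minus wild type, sex4-3 minus wild type and ptpkis2 minus sex4-3, 19.9%, 5.23% and 4.48% of them did. AT1G48550 was the 1 neighbour of 7 called with 12 arrays, in a comparison with 9.46% of all fitted probe sets called. It was lower in ptpkis2 (78.6, 105 and 87.7) than in sex1-3 (156, 174 and 155) by 0.84 ± 0.20 on the log2 scale (adjusted p = 0.021), the opposite direction to PMEAMT in that comparison. This call was lost with median centring (adjusted p = 0.097) and without ptpkis2 replicate 1 (0.10) or 3 (0.083) or any 1 sex1-3 array (0.062 to 0.081). Without wild type replicate 2, 4 of the 7 neighbours passed in ptpkis2 minus sex1-3, beside 29.1% of all fitted probe sets: AT1G48550, AT1G73630 at 1.37 ± 0.35 (limma adjusted p = 0.0096), AT1G48570 at 0.85 ± 0.27 (0.029) and AT1G73650 at -0.41 ± 0.13 (0.034). In sex4-3 minus sex1-3, with 14.0% called, AT1G48550 passed at -0.57 ± 0.17 (adjusted p = 0.044).

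Across the 12 arrays the log2 signals of AT1G73600 and PMEAMT had a Pearson correlation of 0.947, or 0.951 over 11 arrays. This is a description of arrays that fall into genotypes, with sex1-3 low for both genes. Among 7391 other named probe sets PMEAMT held place 11 in likeness to AT1G73600, and AT1G73600 held place 10 in likeness to PMEAMT. Over 11 arrays the places were 33 and 24. The Spearman correlation of the pair was 0.867 over 12 arrays, at place 70 from AT1G73600 and place 13 from PMEAMT. Over 11 arrays it was 0.827, at places 243 and 70.

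The genes most like AT1G73600 over 12 arrays were AT2G40280 (r = 0.978), AT4G18030 (0.971), AT4G13840 (0.968), GH9C2 (0.968), of the glycosyl hydrolase 9 family, and AT5G45650 (0.967). AT2G40280 had mean signals of 118 in ptpkis2, 88.0 in wild type, 83.2 in sex4-3 and 54.7 in sex1-3, the same order as AT1G73600. GH9C2 had 158, 70.4, 83.1 and 12.2, with wild type and sex4-3 in the other order. Over 11 arrays the 5 were AT5G45650 (0.99), UGT78D1 (0.984), a flavonol glycosyltransferase, AT3G23300 (0.98), AT1G29980 (0.978) and AT2G40280 (0.978), so 2 of 5 were shared. Most opposite over 12 arrays were AT2G30600 (-0.975), AT2G05540 (-0.973) and AKINBETA1 (-0.962), a subunit of the energy-sensing kinase SnRK1. AT2G05540 had mean signals of 93.9 in ptpkis2, 150 in wild type, 286 in sex4-3 and 1183 in sex1-3. Over 11 arrays Fes1C (-0.992), an Hsp70 cofactor, AT2G05540 (-0.982) and AT2G31810 (-0.981) were the most opposite.

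PMEAMT had other close companions. Over 12 arrays they were AT3G53560 (r = 0.966), AT3G14240 (0.966), AT3G15310 (0.96), scpl35 (0.96), of the serine carboxypeptidase-like family, and AT1G04680 (0.957). Over 11 arrays they were AT1G06830 (0.983), AT5G28500 (0.982), the peroxidase gene PRXR1 (0.978), AT1G60770 (0.975) and AT5G43870 (0.972), with 0 of 5 shared. AT1G06830 had mean signals of 56.7 in sex1-3, 213 in sex4-3, 366 in ptpkis2 and 395 in wild type without replicate 2. Most opposite to PMEAMT were AT1G72060 (-0.937), AT1G32460 (-0.931) and the aldehyde dehydrogenase gene ALDH7B4 (-0.931) over 12 arrays, and over 11 arrays AT3G19910 (-0.964), Fes1C (-0.956) and IVD (-0.954), isovaleryl-CoA dehydrogenase of leucine breakdown. IVD had a mean signal of 230 in sex1-3 and of 45.3 in wild type without replicate 2. The companions were picked for these values, which all come from the same arrays. Ranked by Spearman correlation over 12 arrays, the 5 most alike shared only 1 with the Pearson 5, for AT1G73600 and for PMEAMT alike.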

How the data were processed

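The deposited values are linear MAS5 signal intensity, 1 for each probe set on each array. The submitters' processing notes name MAS5 and GCOS; versions and scaling target: not given in the sources used here. Signals were log2-transformed as deposited, without a pseudocount or renormalization. After removal of 64 control probe sets and of the dimmest 40% by mean log2 signal, 13647 were kept. With limma 3.58.1 (R 4.3.3), lmFit and a trended eBayes gave 1 model per probe set over all 12 arrays (8 residual degrees of freedom), with two-sided tests, Benjamini-Hochberg adjustment over all kept probe sets and a threshold of 0.05. Each SE comes from that fit, except for the ratio of the paralogues, whose SE pools the spread within genotypes.

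Names came from the platform annotation and a RefSeq table of assembly TAIR10.1, used for names and neighbours only: 13513 probe sets had 1 gene, 503 several and 8730 are unnamed here, and 13436 of the first kind matched RefSeq. The genes and lists were chosen with earlier results of these data known. The rule for named genes took AT1G73600, PMEAMT, XPL1 where named, list members that were called, up to 6 uncalled choline genes, and the 5 most and 3 least correlated genes over 12 and over 11 arrays; further uncalled genes of the added list, and neighbours, were named after their values were seen. The fit was tested on simulated data with independent noise and no outlying array, so that test does not cover the effect of wild type replicate 2. The number of arrays limits the precision. Alternatives were quantile normalization, median centring, a floor at the 20th percentile or a pseudocount of that size, other filters, no trend, fits of 2 genotypes only, a replicate block and leaving out each array.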

Additional observations from a re-analysis of the deposited data

Results flagged for a closer look

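The spike-in probe sets, which no comparison uses, carried far more signal on wild type replicate 2 than elsewhere: the median ratio over 24 of them to the median of the other arrays was 22.8, against 0.5 to 1.35 on the other 11. On this array AT1G73600 (89.6) and PMEAMT (244) were both below the other wild type arrays, and its part in those values was not tested.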

How the results depend on the processing

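The differences of AT1G73600 and PMEAMT and the 6 counts of choline genes called, 18 results in all, moved by less than the spread between replicates, with counts within 1.5 times, under quantile normalization, a floor at the 20th percentile, no filter, a filter on the lowest 20%, no trend and the replicate number as a block. The filters, the trend and the block cannot change the differences of these genes, so there only the counts could have moved. Wild type replicate 2 widens the spread used: the wild type SD of log2 signal was 0.76 for AT1G73600 and 0.85 for PMEAMT. Without that array it was 0.12 and 0.05. Median centring turned PMEAMT in sex4-3 minus wild type to 0.12 and gave 2.34 for PMEAMT in ptpkis2 minus sex1-3. A pseudocount gave 5.75 and 3.38 for AT1G73600 in ptpkis2 and sex4-3 minus sex1-3, since it adds to low sex1-3 signals. Fitting ptpkis2 and sex1-3 alone called 2 choline genes. Leaving out wild type replicate 2 turned PMEAMT in ptpkis2 minus wild type to -0.22 and called 1 choline gene in ptpkis2 minus sex1-3. The cause was not tested. With each array left out in turn, PMEAMT in ptpkis2 minus wild type ranged from -0.22 to 0.53, AT1G73600 from 1.5 to 2.2, and in sex1-3 minus wild type they ranged from -2.80 to -2.05 and from -4.90 to -4.17. In sex4-3 minus wild type AT1G73600 ranged from -0.90 to -0.20 and PMEAMT from -0.77 to -0.02. Choline genes called in ptpkis2 minus sex1-3 ranged from 0 to 1. Over all probe sets the limma calls between sex1-3 and wild type went from 403 (148 higher, 255 lower) to 206 with quantile normalization, 86 (53 higher, 33 lower) with median centring and 1211 without wild type replicate 2. Median centring took calls in ptpkis2 minus wild type from 36 to 1, in ptpkis2 minus sex1-3 from 1291 (721 higher, 570 lower) to 470 (188 higher, 282 lower), in sex4-3 minus sex1-3 from 332 to 57 and in ptpkis2 minus sex4-3 from 9 to 0. It put the median difference from wild type of all probe sets at 0.36 to 0.52, and quantile normalization put it at 0.15 to 0.16.

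No sign of pairing by replicate number was seen: deviations of same-numbered arrays from their genotype means correlated at -0.0686 to 0.114 over 18 pairs, and of others at -0.143 to 0.132 over 36. Deviations from a mean of 3 arrays are tied to one another, so these values cannot show that same-numbered arrays were handled apart. With the replicate block AT1G73600 in sex1-3 minus wild type was again -4.46, as it must be when each genotype has every replicate number.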
